A study of Arabidopsis thaliana with 9 samples.

Results

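In inflorescence stems of Arabidopsis thaliana, 262 of 22746 probe sets (1.15%) were higher than in wild type by at least 1.5 on the log2 scale in both lignin lines of the series, HCT-RNAi and ccr-1. A probe set is the group of short oligonucleotides that reads a transcript on the Affymetrix ATH1 array. Each difference was taken between the means of 3 arrays per group, in log2 of the deposited linear intensities, with the control probe sets left out. The 2 differences from wild type chose the members and are therefore given as a description, with no test. The difference between ccr-1 and HCT-RNAi does not enter the rule, although it was measured on the same arrays, and it was tested. Of the 262 members, 247 read a single named gene, 14 are shared by related transcripts and 1 is annotated to several genes.

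All plants were of ecotype Columbia-0, were 1.5 months old and grew in a cycle of 16 h light and 8 h dark. HCT-RNAi plants carried an RNA interference construct against HCT, ccr-1 plants a loss-of-function allele of CCR1, and wild-type plants (WT) neither, with 3 arrays for each of the 3 groups. The labels used here do not describe the construct's promoter, the number of independent lines or the ccr-1 lesion. They also do not state whether replicate arrays came from different plants, and the spread between arrays may therefore be technical.

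Lignin is the phenolic polymer that stiffens the walls of xylem vessels and fibres. HCT transfers a hydroxycinnamoyl group to shikimate midway along the monolignol pathway, and CCR1 reduces hydroxycinnamoyl-CoA esters in the first step specific to lignin monomers. Flavonoids and sinapate esters are made from the same phenylpropanoid intermediates. In Arabidopsis, reduced activity of either enzyme is known to weaken vessel walls and to limit growth of the stem.

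The targeted transcript was lower in each line. HCT had log2 intensities of 9.00, 9.00 and 8.90 in HCT-RNAi, against 12.43, 12.54 and 12.52 in wild type. CCR1 had 10.01, 10.17 and 10.02 in ccr-1, against 11.87, 11.85 and 11.90 in wild type. Replicate arrays correlated at 0.997 to 0.999. The median log2 intensity of an array lay between 6.92 and 7.04, and centring each array on it would move the difference between HCT-RNAi and wild type by -0.10. The gap between 3′ and 5′ control probe sets is a sign of RNA quality. The log2 intensity of the 3′ control probe set of actin exceeded that of the 5′ one by 4.36 ± 0.02 (SD, n = 3 arrays) in HCT-RNAi, 3.86 ± 0.04 in ccr-1 and 3.98 ± 0.06 in wild type. For GAPDH these gaps were 1.78 ± 0.12, 1.61 ± 0.05 and 1.46 ± 0.06, and their part in the results was not tested.

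The summed signal of genes known as markers of flowers and of seeds differed between the groups. Among 12 named floral organ markers the summed linear intensity was 351 to 380 in wild type, 1260 to 1286 in HCT-RNAi and 3280 to 3387 in ccr-1. Of these markers, 4 were called absent on every wild-type array. The sum over 16 seed storage and oil body markers was 563 to 588 in wild type, 613 to 619 in HCT-RNAi and 95808 to 99590 in ccr-1. Xylem markers, 17 in all, summed to 60589 to 63151 in wild type and were present at lower levels in HCT-RNAi (18652 to 19769) and ccr-1 (24636 to 25147). In bulk tissue, a change in the number of cells of a type and a change in RNA per cell cannot be told apart. Whether floral organs or seeds were in the samples, and their part in the results below, was not tested.

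**Figure D1:**
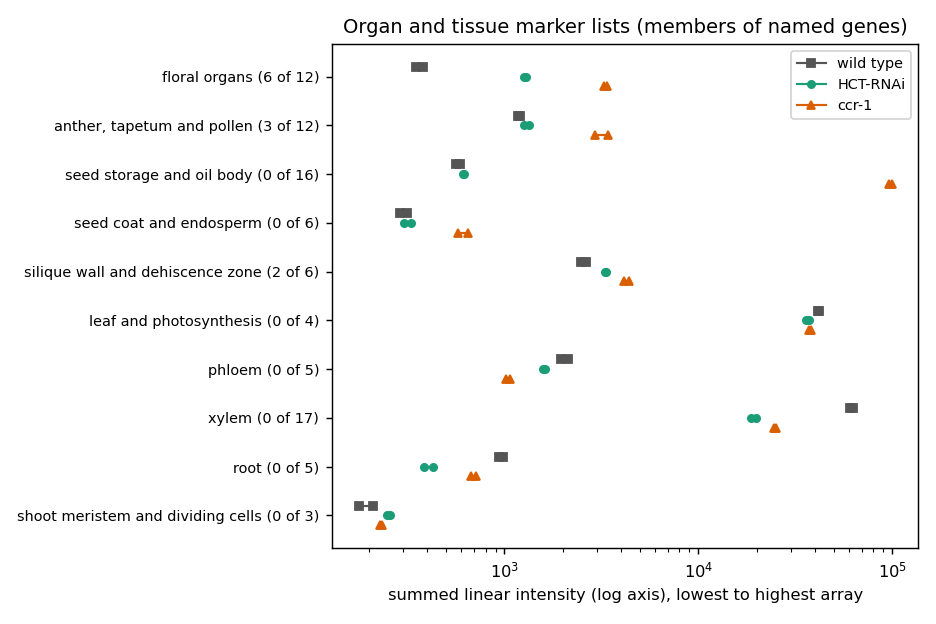
Summed linear intensity of the named genes of each organ or tissue marker list, on a log axis, with symbols joined by a line at the lowest and the highest array of each group (3 arrays per group). Numbers in brackets give how many of the named genes are members. Seed storage markers stand apart in ccr-1 alone and hold 0 members of 16, whereas floral organ markers are higher in both lines and hold 6 of 12.

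In HCT-RNAi, 528 probe sets (2.32%) reached the threshold, and in ccr-1 664 (2.92%). The members are 49.6% of the first list and 39.5% of the second, and both comparisons share the wild-type arrays. The median difference from wild type over the members was 2.42 in HCT-RNAi and 2.39 in ccr-1, against -0.01 and -0.04 over all probe sets. The quartiles were 1.93 and 3.22 in HCT-RNAi and 1.96 and 3.18 in ccr-1. The difference was at least 2 in both lines for 147 members and at least 3 for 38. No array of either line overlapped a wild-type array in any of the 262 members, which follows largely from the rule. Over all probe sets the arrays of HCT-RNAi lay wholly above those of wild type in 35.3% and the arrays of ccr-1 in 26.4%. The members nearest above the threshold were CYP704B1 (smaller difference 1.5020), UMAMIT29 (1.5021) and RAB18 (1.5028), and the named genes nearest below it were ABS2 (1.4989), PMAT1 (1.4963) and PYD4 (1.4962).

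**Figure D2:**
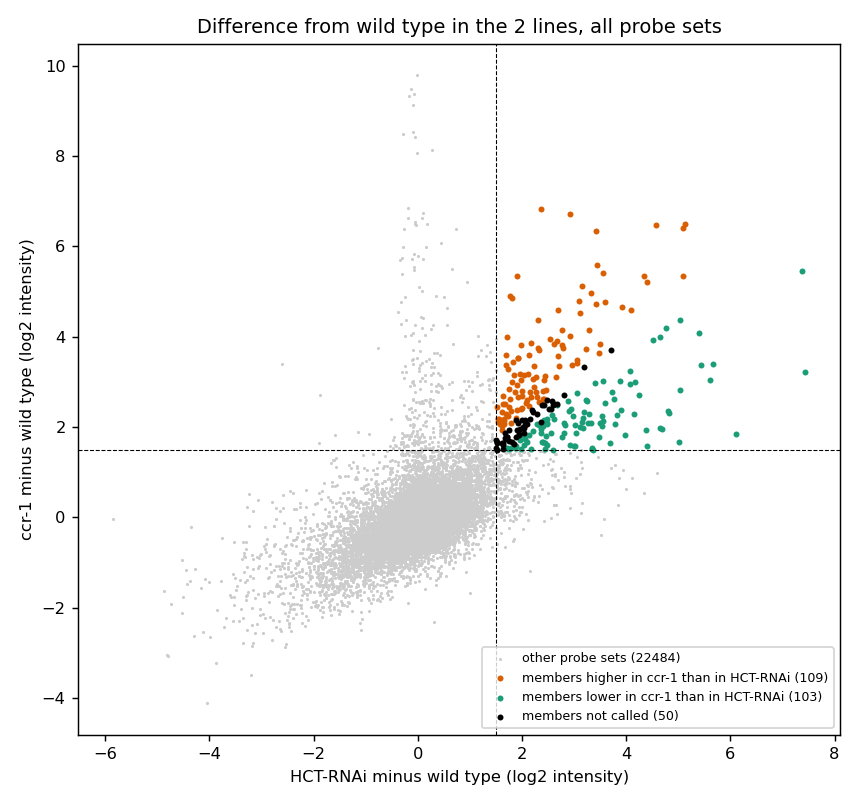
Difference from wild type in HCT-RNAi (horizontal) and in ccr-1 (vertical), in log2 intensity, with 1 point per probe set. Dashed lines mark the threshold of 1.5, and the 262 members to the upper right of both lines are coloured by the comparison of ccr-1 with HCT-RNAi, in which 109 were higher, 103 lower and 50 not called.

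The authors' detection calls were present on all 3 wild-type arrays for 175 members, absent on all 3 for 34 (13%) and mixed for 53. Of the 3783 probe sets in the authors' table, 7.77% were absent on all wild-type arrays. Members were called present on all 3 arrays in 258 cases in HCT-RNAi and in 260 cases in ccr-1. For the 34 members absent in wild type the difference is a bound, written as at least N-fold. It was taken against the mean of, per wild-type array, the higher of the probe set's own value and the lowest log2 intensity among probe sets called present, which was 3.17 to 3.70. Over the members, replicates had a median standard deviation of 0.06 in each line and 0.12 in wild type, against 0.07 in HCT-RNAi, 0.08 in ccr-1 and 0.07 in wild type over all probe sets.

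Several kinds of gene stood among the 20 named members with the largest smaller difference. They included genes of jasmonate response, of lipid transfer, of late embryogenesis and of the silique wall and dehiscence zone. CORI3 (AT4G23600), a cystine lyase gene induced by coronatine and jasmonate, came first, with log2 intensities of 12.25, 12.18 and 12.27 in HCT-RNAi and 10.30, 10.30 and 10.30 in ccr-1, against 4.57, 4.93 and 5.06 in wild type. LTP2 (AT2G38530), a lipid transfer protein of the epidermis, had 11.49, 11.48 and 11.48 in HCT-RNAi and 12.75, 12.83 and 12.81 in ccr-1, against 6.36, 6.48 and 6.30 in wild type. The groups were apart in both genes, with CORI3 highest in HCT-RNAi and LTP2 highest in ccr-1. ELI3-1 (AT4G37980), an elicitor-activated alcohol dehydrogenase gene, was at 10.33, 10.26 and 10.29 in HCT-RNAi and at 9.71, 9.71 and 9.72 in ccr-1, against 5.68, 5.46 and 5.40 in wild type. HIS1-3 (AT2G18050), a linker histone induced by dehydration, was at 12.10, 12.15 and 12.10 in HCT-RNAi and at 11.54, 11.54 and 11.48 in ccr-1, against 7.63, 7.47 and 7.69 in wild type. Both were lower in ccr-1 than in the HCT-RNAi line, by -0.57 ± 0.07 (SE, n = 3 arrays per group; limma adjusted p = 1.44e-05) for ELI3-1 and -0.60 ± 0.06 (adjusted p = 3.69e-06) for HIS1-3.

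GLYI7 (AT1G80160), of the glyoxalase I family, was at 8.76, 8.86 and 8.77 in HCT-RNAi and at 10.67, 10.62 and 10.64 in ccr-1, against 5.07, 5.33 and 5.30 in wild type. DIN2 (AT3G60140), a beta-glucosidase gene first found in darkened leaves, was absent in wild type and was higher by at least 10.8-fold in HCT-RNAi and by at least 26.6-fold in ccr-1. These 2 genes were higher in ccr-1 than in the HCT-RNAi line, by 1.85 ± 0.07 (adjusted p = 3.55e-10) for GLYI7 and by 1.31 ± 0.08 (adjusted p = 2.79e-08) for DIN2. The remaining genes of the 20 without a place in the groups below were AT4G23680, AT5G52390, AT5G39520 and AT1G64360, whose functions are not established, and their differences from wild type lay between 3.47 and 5.39 in HCT-RNAi and between 3.63 and 5.22 in ccr-1. AT5G52390 was lower in ccr-1 than in the HCT-RNAi line by -1.31 ± 0.10 (adjusted p = 1.89e-07) and AT5G39520 was higher by 1.15 ± 0.11 (adjusted p = 1.13e-06). AT4G23680 was higher by 0.82 ± 0.11 (adjusted p = 4.14e-05). AT1G64360 differed by 0.16 ± 0.06 (adjusted p = 0.0458), a call that was lost when any of 6 single arrays was left out.

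**Figure D3:**
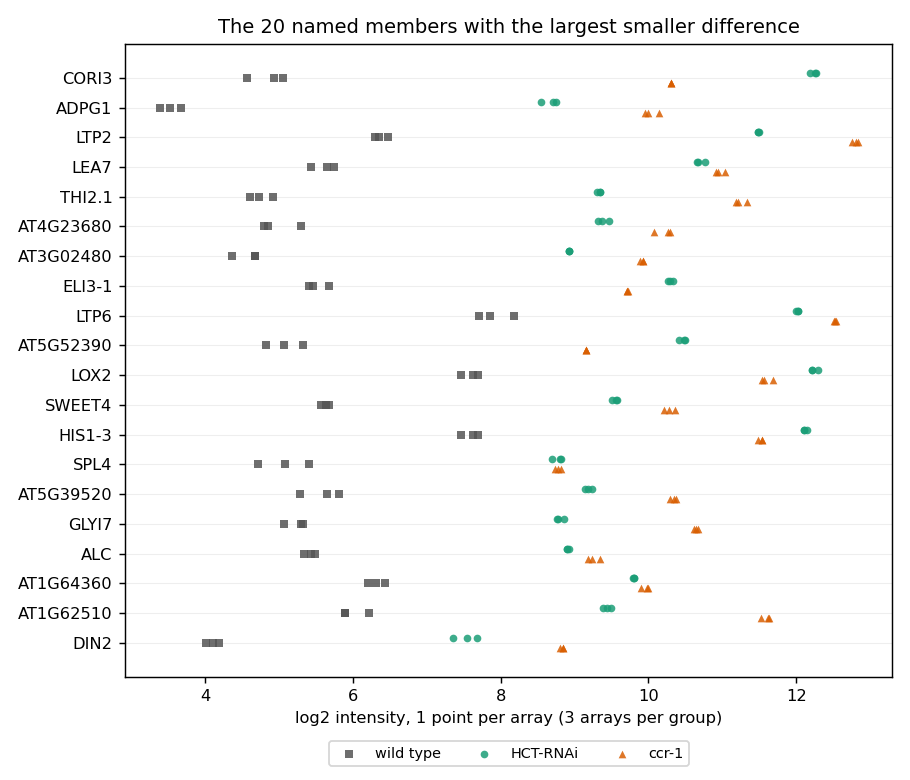
Log2 intensity of the 20 named members with the largest smaller difference from wild type, with 1 symbol per array and 3 arrays per group. Wild-type symbols lie to the left of both lines in every row, which follows largely from the rule. The order of HCT-RNAi and ccr-1 differs between rows. Levels are not comparable between rows.

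The direct comparison of the lines asked whether the shared transcripts were equally high in both. Of the 262 members 109 (41.6%) were higher in ccr-1 than in the HCT-RNAi line, where 25.4% of all probe sets were, and 103 (39.3%) were lower, where 33.6% of all probe sets were (limma, adjusted p under 0.05). The other 50 were not called, and their differences were at most 0.26 in size with standard errors up to 0.22. With a difference of at least 1 on the log2 scale as well, 47 of the 262 members were higher and 44 lower. Over all probe sets, 4.8% were higher and 2.97% lower by the same criterion. The median difference over the members was 0.03, against -0.01 over all probe sets, and the range ran from -4.26 to 4.46. The 3 ccr-1 arrays lay above the 3 HCT-RNAi arrays in 111 members and below them in 105, that is 42.4% and 40.1%, against 27.7% and 35.4% of all probe sets. Of the 186 probe sets lower than wild type by at least 1.5 in both lines, 112 were higher and 16 lower in ccr-1 than in the HCT-RNAi line.

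**Figure D4:**
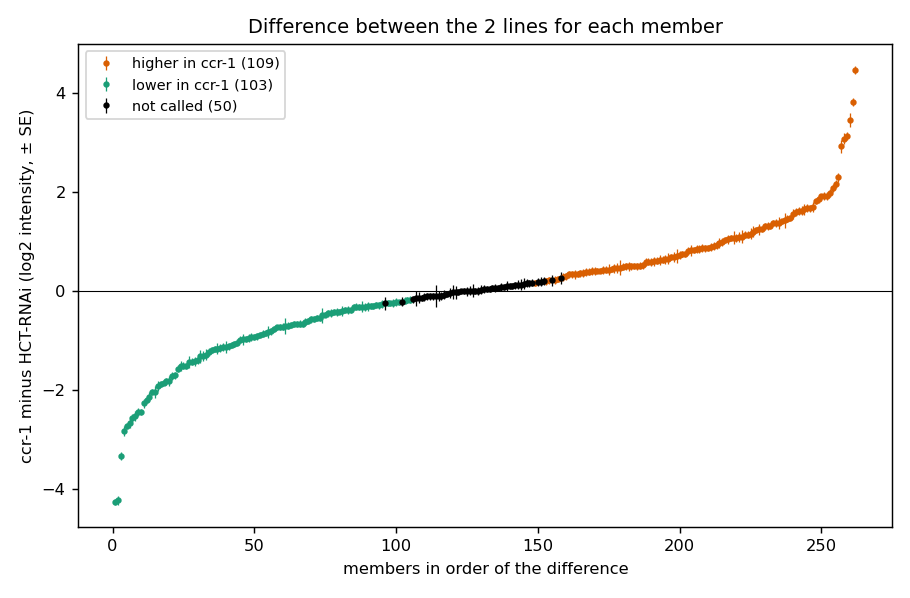
Difference between ccr-1 and HCT-RNAi in log2 intensity for the 262 members, ordered from the lowest to the highest, with the standard error of the fit as bars (3 arrays per group). The values run from -4.26 to 4.46, with 103 members called lower, 109 called higher and 50 not called around 0.

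The named members furthest up in ccr-1 were mostly genes of the lipid transfer superfamily and of flowers and seeds. AT5G38160 had log2 intensities of 7.23, 7.21 and 7.21 in HCT-RNAi and 11.74, 11.60 and 11.69 in ccr-1, against 4.69, 4.84 and 5.02 in wild type, and differed between the lines by 4.46 ± 0.08 (adjusted p = 3.37e-13). Its neighbour AT5G38170, absent in wild type, differed by 3.81 ± 0.08 (adjusted p = 1.52e-12), and AT1G62500 by 3.45 ± 0.14 (adjusted p = 5.19e-10). All 3 are annotated to the superfamily that holds lipid transfer proteins and 2S albumins. DELTA-VPE (AT3G20210), a caspase-1-like vacuolar processing enzyme known from the seed coat, was at 6.12, 6.12 and 6.12 in HCT-RNAi and at 9.32, 9.29 and 9.15 in ccr-1, a difference of 3.13 ± 0.08 (adjusted p = 1.20e-11). GRP19 (AT5G07550), an oleosin-like protein of the pollen coat, was at 6.38, 6.54 and 6.45 in HCT-RNAi and at 9.35, 9.79 and 9.43 in ccr-1, a difference of 3.07 ± 0.11 (adjusted p = 2.31e-10). Both were absent on the wild-type arrays and were at least 3.4-fold and at least 3.48-fold higher in HCT-RNAi. Between the lines, 10 of 12 floral organ, 8 of 12 anther and pollen and all 16 seed storage markers were called higher in ccr-1. Over all probe sets, 25.4% were called higher and 33.6% lower in this comparison. The part of these organs in the differences of DELTA-VPE and GRP19 was not tested.

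The lowest value, -4.26, belonged to a probe set shared by related transcripts. Among the named members at this end stood a plastid transporter, an anthocyanin enzyme and an ABC transporter. GPT2 (AT1G61800), which carries glucose-6-phosphate into plastids, was at 12.44, 12.44 and 12.57 in HCT-RNAi and at 8.14, 8.31 and 8.32 in ccr-1, against 5.04, 4.87 and 5.21 in wild type. It was lower in ccr-1 by -4.23 ± 0.09 (adjusted p = 1.19e-12). ABCB16 (AT3G28360), a P-glycoprotein of the ABC transporter family, was at 9.73, 9.66 and 9.67 in HCT-RNAi and at 7.03, 7.18 and 7.14 in ccr-1, against 3.91, 4.26 and 4.08 in wild type, and its difference between the lines was -2.57 ± 0.08 (adjusted p = 6.51e-11). The groups of arrays were apart in both genes. UF3GT followed GPT2 at -2.83 ± 0.10, then AT2G47880, a glutaredoxin family gene, at -2.67 ± 0.09, and AT3G28220, a gene of unknown function with a TRAF-like domain, at -2.52 ± 0.10 (adjusted p = 4.08e-10 for the last).

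A total of 49 members lay on the 30 gene lists, which named 312 of 541 entries on the array, and members filled 52 of the 312 (16.7%). The lists were chosen with results of these data known, and genes named through the authors' table of changed probe sets are over-represented on them. In the differences from wild type, 32.9% of all probe sets were called higher and 27.7% lower in HCT-RNAi, and 24.7% higher and 30.1% lower in ccr-1. List counts against wild type below include the members and are read beside these shares. Counts between the lines, for lists and for families, are read beside 25.4% higher and 33.6% lower in ccr-1 over all probe sets. Members made up 6.93% of the authors' table. The share of members in a list or family chosen with the results known is a description.

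**Figure D5:**
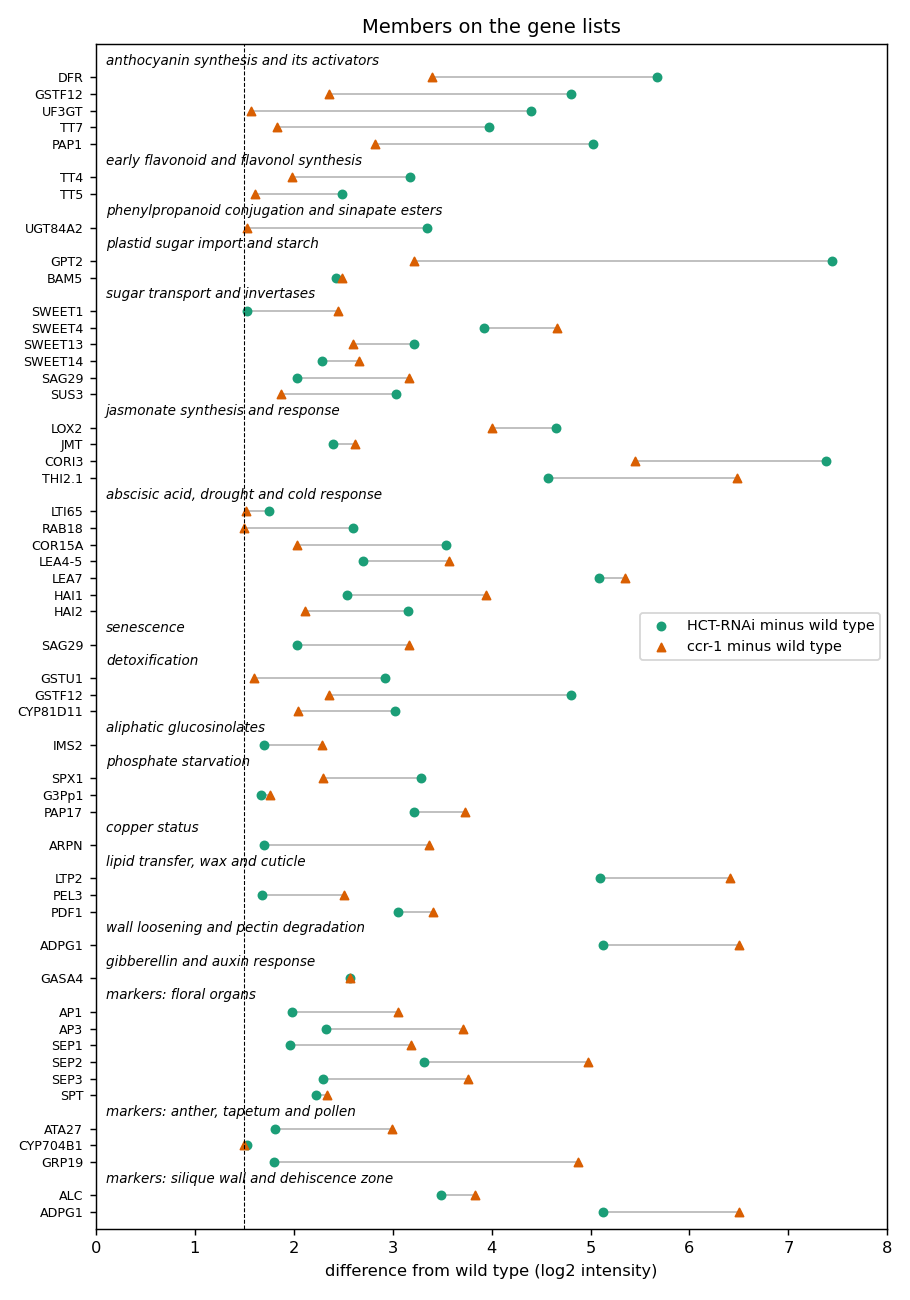
Difference from wild type in HCT-RNAi (circles) and in ccr-1 (triangles), in log2 intensity, for the members on the gene lists, grouped by list, with a dashed line at the threshold of 1.5. Circles lie to the right of triangles in all members of the anthocyanin, early flavonoid and detoxification lists. The order is the other way round in the lipid transfer and cuticle list, and in the floral organ list SPT has the smallest gap. ADPG1, SAG29 and GSTF12 appear on 2 lists each.

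Anthocyanin genes were higher in both lines and, without exception among the named ones, lower in ccr-1 than in the HCT-RNAi line. All 11 named genes of the list were called higher than wild type in each line, with a median difference of 3.97 for HCT-RNAi and 0.96 for ccr-1, and all 11 were called lower in ccr-1. The 5 members were PAP1, the MYB activator of the branch, DFR, the reductase that commits flavonoids to the branch, TT7, a flavonoid hydroxylase, UF3GT, a glycosyltransferase, and GSTF12 (TT19), which is needed to deliver anthocyanins to the vacuole. PAP1 (AT1G56650) was at 11.52, 11.55 and 11.51 in HCT-RNAi, 9.30, 9.36 and 9.30 in ccr-1 and 6.50, 6.48 and 6.52 in wild type. DFR (AT5G42800) was at 12.10, 12.17 and 12.11 in HCT-RNAi, 9.86, 9.86 and 9.84 in ccr-1 and 6.69, 6.40 and 6.29 in wild type. Both were higher in HCT-RNAi than in ccr-1, with no overlap of arrays, and the lowest place of wild type follows from the rule. UF3GT (AT5G54060) was at 10.88, 10.96 and 10.98 in HCT-RNAi but only at 8.07, 8.10 and 8.16 in ccr-1, against 6.47, 6.82 and 6.32 in wild type.

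The differences between the lines in these members ran from -2.14 ± 0.09 in TT7 (adjusted p = 7.79e-10) to the value of UF3GT. The other 6 named genes of the list missed the threshold in ccr-1, where the MYB gene MYB90 was higher than wild type by 0.54 and the acyltransferase gene AT5MAT by 0.31, against 4.34 and 3.16 in HCT-RNAi. Of 7 named early flavonoid genes, TT4, which encodes chalcone synthase, and TT5, which encodes chalcone isomerase, were members. TT4 (AT5G13930) was at 12.96, 12.88 and 12.87 in HCT-RNAi, 11.66, 11.72 and 11.77 in ccr-1 and 9.78, 9.73 and 9.70 in wild type. It was lower in ccr-1 by -1.19 ± 0.06 (adjusted p = 2.78e-09) and TT5 by -0.89 ± 0.06 (adjusted p = 7.56e-08). FLS1, the flavonol synthase gene, was the only gene of the list called higher in ccr-1 than in the HCT-RNAi line, by 0.35 ± 0.05 (adjusted p = 0.000122), and it missed the threshold in HCT-RNAi at 1.42.

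No gene of monolignol synthesis was a member, with 8 named, where members were 1.15% of all probe sets. The targeted genes HCT and CCR1 belong to this pathway. Each was lower in the line that targets it, so neither could be a member. Of 10 named genes of phenylpropanoid conjugation only UGT84A2 (AT3G21560), a sinapic acid glucosyltransferase gene, was a member, at 9.04, 9.18 and 9.22 in HCT-RNAi, 7.34, 7.30 and 7.34 in ccr-1 and 5.55, 6.02 and 5.83 in wild type. Its difference between the lines was -1.82 ± 0.10 (adjusted p = 9.84e-09). Detoxification genes pointed the same way: GSTU1 and CYP81D11, a glutathione transferase and a cytochrome P450 gene induced by foreign compounds, joined GSTF12 as members among 10 named, and all 3 were lower in ccr-1. CYP81D11 (AT3G28740) was at 7.92, 7.93 and 7.88 in HCT-RNAi, 6.91, 6.99 and 6.91 in ccr-1 and 4.84, 4.98 and 4.87 in wild type, with a difference between the lines of -0.97 ± 0.06 (adjusted p = 2.10e-08). GSTU1 (AT2G29490), absent in wild type, was higher by at least 7.58-fold in HCT-RNAi and by at least 3.03-fold in ccr-1, and its difference between the lines was -1.32 ± 0.13 (adjusted p = 2.39e-06).

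Some sugar exporters of the SWEET family were high in both lines. SWEET proteins let sucrose or hexoses pass down their gradient. By a keyword in the gene descriptions, 4 of the 12 probe sets of this family in the authors' table were members (33.3%, against 6.93% of the table), and the other 8 differed from wild type by -1.70 to 1.14 in HCT-RNAi and by -0.83 to 2.24 in ccr-1. SAG29, another member, is SWEET15 but is described there by its senescence name, so 5 members encode SWEET proteins. SWEET4 (AT3G28007) was at 9.57, 9.51 and 9.56 in HCT-RNAi, 10.28, 10.36 and 10.21 in ccr-1 and 5.63, 5.57 and 5.68 in wild type. SWEET13 (AT5G50800) was at 9.40, 9.41 and 9.37 in HCT-RNAi, 8.85, 8.75 and 8.72 in ccr-1 and 6.19, 6.29 and 6.04 in wild type. SAG29 (AT5G13170) was at 9.34, 9.35 and 9.35 in HCT-RNAi, 10.51, 10.44 and 10.46 in ccr-1 and 7.49, 7.25 and 7.19 in wild type. The separation of these 3 genes from wild type follows largely from the rule. SWEET13 alone of the 5 SWEET members was lower in ccr-1 than in the HCT-RNAi line.

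Between the lines, SAG29 was higher in ccr-1 by 1.13 ± 0.07 (adjusted p = 5.27e-08), SWEET1 by 0.92 ± 0.08, SWEET4 by 0.74 ± 0.06 and SWEET14 by 0.39 ± 0.07 (adjusted p = 0.000407 for the last), and SWEET13 differed by -0.62 ± 0.07 (adjusted p = 6.68e-06). SWEET11, another SWEET gene of the sugar list, was below the threshold in both lines, at 1.14 and 1.32. SUS3 (AT4G02280), a sucrose synthase gene, was the sixth member of the list and was lower in ccr-1 by -1.16 ± 0.08 (adjusted p = 1.32e-07). The sugar uptake genes STP1 and STP4 were called lower than wild type in both lines, by -3.33 and -1.37 in HCT-RNAi and by -0.86 and -0.92 in ccr-1. Of 12 named genes of plastid sugar import and starch, GPT2 and the beta-amylase gene BAM5 were members. BAM5 (AT4G15210) was at 9.86, 9.79 and 10.01 in HCT-RNAi and at 9.95, 9.98 and 9.91 in ccr-1, against 7.60, 7.27 and 7.51 in wild type, and the lines overlapped (0.06 ± 0.08, adjusted p = 0.571). All the other 11 genes of that list were lower in ccr-1 than in the HCT-RNAi line.

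Members related to jasmonate were strongly high on arrays where most genes of that list were low. Of 17 named genes, 11 were called lower and 5 higher than wild type in HCT-RNAi, and 10 lower and 6 higher in ccr-1. The JAZ repressor genes JAZ7 and JAZ8, which respond early to the hormone, were at -4.51 and -3.77 in HCT-RNAi and at -1.77 and -1.41 in ccr-1. The 4 members were LOX2, a plastid lipoxygenase gene of jasmonate synthesis, JMT, whose enzyme methylates jasmonic acid, CORI3 and the thionin gene THI2.1. LOX2 (AT3G45140) was at 12.29, 12.22 and 12.22 in HCT-RNAi, 11.56, 11.68 and 11.53 in ccr-1 and 7.63, 7.69 and 7.46 in wild type. THI2.1 (AT1G72260) was at 9.35, 9.35 and 9.30 in HCT-RNAi, 11.21, 11.19 and 11.33 in ccr-1 and 4.73, 4.92 and 4.61 in wild type. The order of the lines thus differed between the 2 genes. CORI3 and LOX2 were lower in ccr-1, by -1.93 ± 0.10 (adjusted p = 5.59e-09) and -0.66 ± 0.07 (adjusted p = 4.15e-06), and THI2.1 was higher by 1.91 ± 0.08 (adjusted p = 5.57e-10). JMT differed by 0.22 ± 0.08 (adjusted p = 0.0352), a call lost under 5 of the alternatives.

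Genes of abscisic acid and desiccation formed the largest group on a list, with 7 members among 16 named. Of the 16, 13 were called higher and 3 lower than wild type in HCT-RNAi, and 11 higher and 4 lower in ccr-1. HAI1 and HAI2, type 2C phosphatases that damp abscisic acid signalling, were both members and moved in opposite ways between the lines. HAI1 (AT5G59220) was at 9.98, 9.94 and 9.86 in HCT-RNAi, 11.35, 11.28 and 11.35 in ccr-1 and 7.45, 7.32 and 7.39 in wild type, higher in ccr-1 by 1.40 ± 0.06 (adjusted p = 8.69e-10). HAI2 (AT1G07430) was at 10.36, 10.19 and 10.17 in HCT-RNAi, 9.06, 9.28 and 9.24 in ccr-1 and 7.12, 7.12 and 7.04 in wild type, lower in ccr-1 by -1.05 ± 0.07 (adjusted p = 9.80e-08). COR15A, which protects chloroplast membranes in the cold, RAB18, a dehydrin gene, and LTI65 were also lower in ccr-1, by -1.51 ± 0.06, -1.09 ± 0.06 and -0.23 ± 0.08, where the call of LTI65 (adjusted p = 0.0222) was lost under 4 alternatives. CYP707A2, whose enzyme breaks down abscisic acid, is on no list but was a member (2.98 and 2.25) and was lower in ccr-1 by -0.73 ± 0.07 (adjusted p = 1.66e-06).

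Late embryogenesis abundant (LEA) proteins protect cells during drying and accumulate in seeds. By a keyword in the gene descriptions, chosen after the members were seen, 8 of the 27 probe sets of LEA genes in the authors' table were members (29.6%, against 6.93% of the table) and 2 were strongly lower in both lines. The other 19 differed from wild type by -3.05 to 0.81 in HCT-RNAi and by -2.52 to 4.89 in ccr-1. LEA7 (AT1G52690) was at 10.76, 10.67 and 10.66 in HCT-RNAi, 10.92, 11.03 and 10.94 in ccr-1 and 5.65, 5.74 and 5.44 in wild type. AT3G02480, absent in wild type, was at 8.92, 8.92 and 8.92 in HCT-RNAi and at 9.92, 9.89 and 9.92 in ccr-1, at least 20.3-fold and at least 40.4-fold higher than wild type. That both were above wild type in each line follows from the rule. Between the lines 6 of the 8 were higher in ccr-1, from LEA7 at 0.27 ± 0.08 (adjusted p = 0.00876) to AT3G17520 at 1.91 ± 0.08 (adjusted p = 5.12e-10), RAB18 was lower and AT5G53820 was not called (-0.10 ± 0.22, adjusted p = 0.72). The seed storage markers were higher in ccr-1 as well, with a median difference of 7.97, and their part in these differences was not tested.

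The superfamily of lipid transfer proteins and 2S albumins made up the largest family among the members. Lipid transfer proteins carry lipids to the cuticle and are also linked to defence. By keyword, 15 of the 45 probe sets of this superfamily in the authors' table were members (33.3%, against 6.93% of the table) and 0 were strongly lower in both lines. The other 30 differed from wild type by -2.38 to 3.78 in HCT-RNAi and by -0.77 to 9.79 in ccr-1. Between the lines 10 of the 15 members were higher in ccr-1, 4 lower and 1 not called. LTP6 (AT3G08770) averaged 12.02 ± 0.02 (SD, n = 3 arrays) in HCT-RNAi, 12.52 ± 0.02 in ccr-1 and 7.92 ± 0.24 in wild type. AT1G62510 was at 9.44, 9.50 and 9.39 in HCT-RNAi, 11.52, 11.63 and 11.62 in ccr-1 and 5.90, 5.90 and 6.22 in wild type. Each array of ccr-1 lay above those of HCT-RNAi in these genes, by 0.50 ± 0.09 (adjusted p = 0.000508) for LTP6 and by 2.15 ± 0.08 (adjusted p = 4.59e-10) for AT1G62510. LTP2 was higher in ccr-1 by 1.31 ± 0.06 (adjusted p = 1.68e-09). The 4 that were lower in ccr-1 were AT5G62080 (-1.29 ± 0.11), AT4G33550 (-1.18 ± 0.06), AT2G37870 (-0.56 ± 0.06) and AT3G22600 (-0.38 ± 0.08). LTP12, known from the anther, was absent in wild type and higher by at least 7.64-fold in HCT-RNAi and by at least 16.2-fold in ccr-1.

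Of 18 named genes of lipid transfer, wax and cuticle, 3 were members, against 16.7% of the named entries over all lists and 1.15% of all probe sets. They were LTP2, PEL3, an acyltransferase gene of cuticle formation, and PDF1, a gene of the outermost cell layer of the shoot. PDF1 (AT2G42840) was at 9.45, 9.45 and 9.45 in HCT-RNAi, 9.90, 9.78 and 9.75 in ccr-1 and 6.59, 6.28 and 6.34 in wild type, and PEL3 had differences of 1.68 and 2.51 from wild type. Both were higher in ccr-1 than in the HCT-RNAi line, PDF1 by 0.36 ± 0.08 (adjusted p = 0.00136) and PEL3 by 0.83 ± 0.06 (adjusted p = 9.16e-08). Of the 18, 7 were called higher and 10 lower than wild type in HCT-RNAi, the latter including the wax genes CER1 at -1.08 and CYP96A15 at -2.75. In ccr-1 12 were called higher and 2 lower.

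Floral regulators accounted for 6 members among 12 named floral organ markers, and 11 of the 12 were called higher than wild type in each line. AP1 and SEP1 to SEP3 encode MADS-box factors that specify floral meristems and organs, AP3 specifies petals and stamens, and SPT is a bHLH factor of the carpel margin. SEP2 (AT3G02310) was at 8.12, 8.08 and 8.08 in HCT-RNAi, 9.73, 9.86 and 9.66 in ccr-1 and 5.07, 4.72 and 4.55 in wild type. SEP3 (AT1G24260) was at 6.86, 6.64 and 6.63 in HCT-RNAi, 8.15, 8.22 and 8.13 in ccr-1 and 4.39, 4.45 and 4.39 in wild type. AP3 (AT3G54340), absent in wild type, was higher by at least 5.04-fold in HCT-RNAi and by at least 13.1-fold in ccr-1. All 5 MADS-box members were higher in ccr-1 than in the HCT-RNAi line, by 1.07 ± 0.06 in AP1 (adjusted p = 1.58e-08) to 1.65 ± 0.11 in SEP2 (adjusted p = 4.71e-08). SPT was the exception, at 7.40, 7.44 and 7.51 in HCT-RNAi and at 7.66, 7.41 and 7.64 in ccr-1, with overlapping arrays (0.12 ± 0.11, adjusted p = 0.358). The reproductive factors AG, PI, SHP2 and STK reached the threshold in ccr-1 only, with differences of 0.66 to 1.14 in HCT-RNAi and of 2.45 to 3.22 in ccr-1, and all 4 were called higher in ccr-1 than in the HCT-RNAi line.

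Of 12 named markers of anther, tapetum and pollen, ATA27, CYP704B1 and GRP19 were members, and the sum over the 12 was 1173 to 1200 in wild type, 1257 to 1345 in HCT-RNAi and 2922 to 3418 in ccr-1. CYP704B1 (AT1G69500), a P450 of pollen wall synthesis, was absent in wild type and lay just inside the threshold, at 5.47, 5.63 and 5.49 in HCT-RNAi and at 5.62, 5.41 and 5.48 in ccr-1. It did not differ detectably between the lines (-0.03 ± 0.13, adjusted p = 0.875). ATA27 was higher in ccr-1 by 1.19 ± 0.11 (adjusted p = 1.29e-06). Of 6 named genes of silique wall and dehiscence zone, ALC, a bHLH factor of the fruit separation layer, and ADPG1, a polygalacturonase that dissolves pectin there, were members. ALC (AT5G67110) was at 8.93, 8.90 and 8.90 in HCT-RNAi, 9.24, 9.34 and 9.18 in ccr-1 and 5.49, 5.43 and 5.34 in wild type, higher in ccr-1 by 0.34 ± 0.06 (adjusted p = 0.000334). ADPG1 (AT3G57510) was at 8.54, 8.75 and 8.71 in HCT-RNAi and at 9.95, 10.14 and 10.00 in ccr-1, against 3.68, 3.53 and 3.39 in wild type. These wild-type values lay within the range of the lowest intensities called present (3.17 to 3.70), so the size of the difference is uncertain. ADPG1 was the only member among 16 named genes of wall loosening and pectin degradation, of which the glycosidase gene BXL2 was at -4.73 in HCT-RNAi and -1.91 in ccr-1. Without the members on any organ marker list, 100 of the remaining 251 were higher in ccr-1 and 103 lower. With them the counts were 109 and 103 of 262, and over all probe sets 25.4% were higher and 33.6% lower. Members known from the anther or the seed coat but on no marker list, such as LTP12 and DELTA-VPE, stayed in. This count therefore does not test the part of these organs.

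Of 8 named genes of phosphate starvation 3 were members, against 16.7% of the named entries over all lists and 1.15% of all probe sets. They were SPX1, a phosphate sensor gene, G3Pp1, a gene induced by phosphate starvation, and PAP17, a purple acid phosphatase gene. PAP17 (AT3G17790) was at 9.61, 9.61 and 9.65 in HCT-RNAi, 10.22, 10.12 and 10.05 in ccr-1 and 6.52, 6.38 and 6.31 in wild type. SPX1 (AT5G20150) was at 9.40, 9.34 and 9.46 in HCT-RNAi, 8.36, 8.47 and 8.40 in ccr-1 and 6.12, 6.21 and 5.99 in wild type. The lines stood in opposite orders, with PAP17 higher in ccr-1 by 0.50 ± 0.07 (adjusted p = 3.00e-05) and SPX1 lower by -0.99 ± 0.07 (adjusted p = 6.77e-08), and G3Pp1 was not called (0.09 ± 0.06, adjusted p = 0.242). All 8 were called higher than wild type in HCT-RNAi, and 7 of them in ccr-1. Of 4 named genes of aliphatic glucosinolate synthesis only IMS2, a methylthioalkylmalate synthase gene, was a member, and of 8 named copper genes only ARPN, which encodes the blue copper protein plantacyanin of the pistil. IMS2 and ARPN were higher in ccr-1, by 0.59 ± 0.08 (adjusted p = 3.35e-05) and by 1.67 ± 0.07 (adjusted p = 9.82e-10).

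The 50 members not called between the lines included a pair of flowering regulators. SPL4 (AT1G53160), an SBP-box transcription factor gene of the floral transition, was at 8.81, 8.69 and 8.82 in HCT-RNAi, 8.77, 8.82 and 8.73 in ccr-1 and 5.41, 4.71 and 5.08 in wild type, and the difference between the lines was 0.00 ± 0.13 (adjusted p = 0.995). Its relative SPL5, named after its values were seen, was at 6.49, 6.50 and 6.38 in HCT-RNAi, 6.39, 6.45 and 6.58 in ccr-1 and 4.88, 4.99 and 4.64 in wild type (0.02 ± 0.09, adjusted p = 0.89). The arrays of the lines overlapped in both genes, and the gap to wild type was larger in SPL4 than in SPL5. GASA4 (AT5G15230), a gibberellin-regulated gene and the only member among 17 of gibberellin and auxin response, was at 11.74, 11.67 and 11.72 in HCT-RNAi and at 11.72, 11.74 and 11.65 in ccr-1, against 9.19, 9.14 and 9.08 in wild type (-0.01 ± 0.05, adjusted p = 0.93). The lack of a call does not show equal levels. The standard errors were small beside the differences from wild type, which were 3.71 in both lines for SPL4 and 2.57 in both for GASA4.

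Further families were counted by keyword after the members were seen, and their shares stand beside the 6.93% of the whole table. The authors' table held 14 probe sets of peroxidases, of which 5 were members (35.7%), with differences from wild type of 1.89 to 2.26 in HCT-RNAi and of 1.52 to 3.36 in ccr-1. Between the lines AT1G44970 was higher in ccr-1 by 1.13 ± 0.07 (adjusted p = 4.28e-08) and AT5G51890 by 0.52 ± 0.07 (adjusted p = 1.92e-05), a shared probe set was lower by -0.66 ± 0.06 (adjusted p = 1.59e-06), and PRX52 (-0.10 ± 0.08, adjusted p = 0.304) and AT1G71695 (-0.03 ± 0.06, adjusted p = 0.651) were not called. All 3 ABC transporter members, of 18 in the table (16.7%), were lower in ccr-1. Of 45 UDP-glycosyltransferases 5 were members (11.1%), among them UGT74F2, which glucosylates salicylic acid, absent in wild type and at least 6.6-fold and at least 10.3-fold higher in the lines. DELTA-VPE had a counterpart in BETA-VPE, at 11.64, 11.67 and 11.56 in HCT-RNAi, 10.49, 10.55 and 10.61 in ccr-1 and 8.04, 8.11 and 7.92 in wild type. These vacuolar processing enzymes, 2 of 3 in the table, moved in opposite ways between the lines, since BETA-VPE was lower in ccr-1 by -1.07 ± 0.06 (adjusted p = 2.26e-08). NAC019 and NAC047 were the only members of 16 NAC factor probe sets (12.5%), of which 5 were strongly lower in both lines. In all, 69 members fell in a keyword family and 166 in neither a list nor a family. The lists of salicylic acid defence (11 named genes), ethylene response (12), sulfur limitation (8) and the circadian clock (6) held no member. Nor did the markers of seed storage (16 named genes), seed coat (6), leaf (4), phloem (5), xylem (17), root (5) and meristem (3). With members at 1.15% of all probe sets, their absence from lists this short is given as a description only.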

How the data were processed

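Per the submitters' processing notes, RMA and MAS5 were used, with no version or setting stated. The intensities were deposited on a linear scale in a matrix of all probe sets, and log2 of these deposited values was taken here. RMA makes the distributions of the arrays alike, so a change in the total amount of RNA in a cell is not visible. The authors also deposited a table of 3783 probe sets, all 262 members included, with identical intensities and a detection call per array. The ratio of linear group means in that deposited table was not used.

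The 64 control probe sets were left out. limma 3.58.1 in R 4.3.3 fitted group means to the 9 arrays together with lmFit and eBayes, and p-values were adjusted by Benjamini-Hochberg over 22746 probe sets, with calls at an adjusted p under 0.05. Adjusted p-values and standard errors are from this fit, with 3 arrays per group, and precision is limited by that number. The code was first tested on simulated data. Tables were made in Python 3.11.15 with pandas 2.3.3.

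Names came from the platform annotation, or else from the locus that the authors' table gives, and symbols from RefSeq. This named 14884 probe sets, and shared or ambiguous ones stayed unnamed. No build is named for the files, so no coordinates are given, and promoter or protein sequences were not used here.

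The members, the gene lists and the tests were chosen with earlier results of these data known. The genes named are HCT and CCR1, the 20 named members with the largest smaller difference, members on a list, the 5 furthest up and the 5 furthest down between the lines, and the 3 nearest each side of the threshold. Values of other list genes are given as examples. Genes named only through a keyword family, and SPL5, CYP707A2 and BETA-VPE, were chosen after their values were seen, as were the family keywords and the count without organ markers. Alternatives were another scaling, linear group means, a filter on low values, shared probe sets left out, other thresholds, another moderation of the variance, a fit of the 2 lines alone and each array left out.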

Additional observations from a re-analysis of the deposited data

How the results depend on the processing

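The rule's threshold set the size of the group: with at least 1 in both comparisons there were 542 members, of which 206 were higher and 208 lower in ccr-1 than in the HCT-RNAi line, and with at least 2 there were 147, of which 66 were higher and 58 lower. Asking also for a difference of at least 1 between the lines left 47 higher and 44 lower. The other alternatives moved no count by over 1.5 times. There were 244 members after centring each array on its median, and 250 to 266 when 1 array was left out, with 105 to 115 higher and 95 to 104 lower in ccr-1. Over 69 named genes and 963 values of the difference between the lines, 939 kept their direction and their side of the threshold, 15 lost their call (AT1G64360, JMT and LTI65), 1 gained it (G3Pp1, 0.16 after centring) and 8 changed sign. The changes of sign were in uncalled genes. With 1 array left out, SPL4 ranged from -0.04 (without HCT-RNAi replicate 2) to 0.03, CYP704B1 from -0.09 to 0.02 (without HCT-RNAi replicate 2 or ccr-1 replicate 5) and GASA4 from -0.03 to 0.02 (without ccr-1 replicate 6). SPL4 was also at -0.02 without ccr-1 replicate 5 and GASA4 at 0.01 without HCT-RNAi replicate 1. After centring CYP704B1 was at 0.05 and GASA4 at 0.07. The cause was not tested. No paired analysis was possible because the replicate numbers run from 1 to 9 and no number is shared between groups. Low intensities in wild type limit the differences of the 34 members called absent there to bounds.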

Other observations

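Some members lie next to each other in the genome. In the gene order of the RefSeq table, 20 of the 247 named members (8.1%) were immediately beside another member, in 10 pairs, where 265 of 13858 named genes (1.91%) were beside a member. Of these pairs, AT5G38160 with AT5G38170, AT1G62500 with AT1G62510 and AT3G22600 with AT3G22620 are lipid transfer superfamily genes. CSLG3 with CSLG2 and ELI3-1 with ELI3-2 are related genes too, and AT4G15610 and AT4G15620 share an uncharacterised protein family (UPF0497). Whether related neighbours share signal on the array was not tested. Within a pair the values could differ: ELI3-1 was higher than wild type by 4.77 in HCT-RNAi and 4.20 in ccr-1, and ELI3-2 by 1.68 and 1.86. CSLG3 was lower in ccr-1 than in the HCT-RNAi line by -0.94, and CSLG2 was higher by 0.38. The pair GILT and STOMAGEN, which encode a thiol reductase family protein and a peptide that promotes stomata, differed more, with 2.92 for GILT and -0.29 for STOMAGEN between the lines.

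Members of glucosinolate breakdown were not on the lists and were picked out after their values were seen. ESM1, known to favour isothiocyanates over nitriles, was at 12.30, 12.25 and 12.17 in HCT-RNAi, 10.30, 10.42 and 10.36 in ccr-1 and 8.09, 8.16 and 8.01 in wild type. ESP, the epithiospecifier protein gene with the opposite known role, was at 10.28, 10.17 and 10.11 in HCT-RNAi, 10.54, 10.54 and 10.45 in ccr-1 and 8.15, 7.98 and 8.04 in wild type. Both genes were high in both lines, as the rule requires. ESM1 was lower in ccr-1 than in the HCT-RNAi line by -1.88 ± 0.06 (adjusted p = 9.78e-11) and ESP was higher by 0.33 ± 0.07 (adjusted p = 0.00088). RNS1, a secreted ribonuclease gene known from phosphate starvation, was absent in wild type and higher by at least 3.26-fold in HCT-RNAi and by at least 16-fold in ccr-1.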
